A study of Capsicum annuum and Capsicum chinense and Capsicum annuum var. glabriusculum with 33 samples.

Results

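The 150 genes described here had their highest Zunla 1 level in fruit 3 days after breaker, the stage just after green pepper fruit starts to change colour. Zunla 1 is an inbred line of Capsicum annuum, and its 14 libraries cover developing root and stem, mature leaf, closed flower bud, open flower and 9 fruit stages. Of 31426 genes in the table, 1299 were highest in this library at 10 RPKM or more, where RPKM divides the reads of a gene by its length in kilobases and by the read total of its library. These were ranked by log2(RPKM + 1) at 3 days after breaker minus the same for the highest of the 5 non-fruit organs and the 5 fruit stages up to mature green, and the top 150 were taken. The rule left out 2 IDs, of which only Capana06g000615 met the condition on the highest library. All Zunla 1 values chose the members, so they are given below as description without a test.

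Pepper fruit stops growing at the mature green stage and then ripens. During ripening chloroplasts turn into chromoplasts, chlorophyll is lost, red and orange carotenoids build up and cell walls soften. Pepper is usually classed as non-climacteric, which means that its ripening does not run on the burst of respiration and ethylene seen in tomato, and the programme passes from early to late gene sets within days.

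Poly(A) RNA was sequenced in 33 libraries, 1 for each line, organ and stage. The Zunla 1 fruit stages were 0 to 1 cm, 1 to 3 cm, 3 to 4 cm and 4 to 5 cm long fruit, mature green fruit, breaker fruit and fruit 3, 5 and 7 days after breaker. Besides Zunla 1, the mature green stage was sampled in 8 C. annuum lines (ZJ32, ZJ9, ZJ49, 11c255, 11c320, G16, T803 and a line titled SP3 but described as SP163), and the stage 5 days after breaker in ZJ49 and ZJ7. Lines titled ZJ are labelled Zunla with the same number. HYL, a Capsicum chinense line, had root, stem and leaf of seedlings and fruit at the mature green stage and 5 days past breaker. Chiltepin, the wild C. annuum var. glabriusculum, had a leaf mix of 4 ages, a mix of buds and open flowers, and breaker fruit. A breaker library titled HYL but described as Zunla 1 entered no comparison. No line was sequenced again at the same stage, so every p below measures the spread between lines or organs, not between plants. Whole bulk tissue was used, in which fewer cells of a type and less RNA per cell cannot be told apart.

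Read counts recovered from the steps between RPKM values summed to 11912848 to 15040185 reads in 25 shallower libraries and to 24438806 to 29251982 reads in 8 deeper ones. The deeper ones were all 3 from Chiltepin and those of 11c255, 11c320, G16, SP3 and T803, all mature green. In fruit 3 days after breaker the members were covered by a median of 2629 reads, from 75 to 541404, over the 149 members with recovered reads. In other libraries some named members rest on few reads, such as 0 to 2 reads of Capana00g000714 in 5 of the mature green lines. The IDs are not paired with names in the sources used here, with 0 of 31426 found in the reference table, so no function is given and the labelled organs could not be checked against marker genes.

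At 3 days after breaker the members ranged from 10.9 to 36108 RPKM with a median of 187 RPKM, and together they held 12.5% of the summed RPKM of that library. In the 5 earlier fruit stages they held 0.766% to 1.30%, and in the non-fruit organs of Zunla 1 0.294% to 0.874%. Ranking gave log2 scores from 5.44 down to 1.57, with a median of 2.04. The last member, Capana02g002668, was at 58.2 RPKM against 18.9 RPKM in its highest earlier library, and the first gene left out, Capana04g002877, was at 57.2 RPKM against 18.6 RPKM. The rule sets a ratio, so members need not be low before ripening, and the highest earlier level reached 1618 RPKM, in Capana02g002261. The highest earlier level lay in fruit of 3 to 4 cm for 44 members, in leaf for 31, in the smallest fruit for 21 and in mature green fruit for 19. Root was the organ where most members were close to off, with 31 of 150 under 1 RPKM, against 5 in mature green and 1 in breaker fruit.

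A rise to 3 days after breaker is fixed by the rule, so only its course is described here. At breaker the members stood at a median of 23.2% of their value 3 days later, and 60 of the 150 had reached 25% of it. With each Zunla 1 library scaled by its median ratio, 89 had. At mature green the median was 11.2%. After the peak the members parted. Transient members, those under 25% of the peak at both 5 and 7 days, numbered 55. Another 27 stayed at 50% or more of it on both days and are called lasting, and the other 68 are called intermediate. At breaker these groups were alike, with medians of 24.1% for transient, 24.1% for lasting and 21.6% for intermediate members. In fruit 5 days after breaker the medians were 6.93%, 63.3% and 30.8% of the peak, a parting that the cut-offs set. In 112 of the 150 members the level at 7 days lay above that at 5 days. The share of all genes was not counted. Median-ratio factors were 0.841 at 5 and 1.037 at 7 days, so values without scaling favour the later day.

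**Figure D1:**
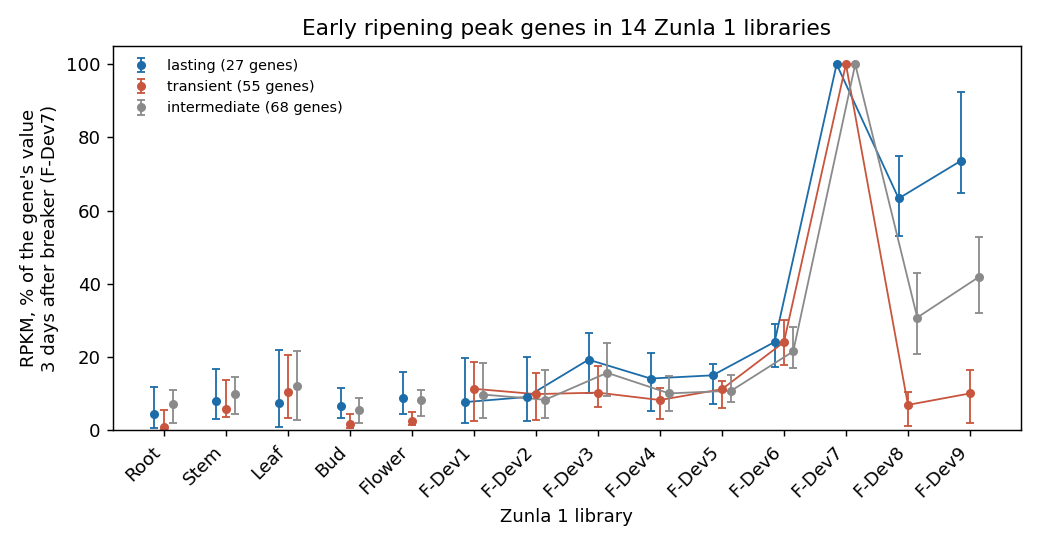
Level of the 150 genes in the 14 Zunla 1 libraries as a percentage of each gene's RPKM 3 days after breaker (F-Dev7, 100% by construction). Points are medians over the genes of a time course group and bars the quartiles, with 1 library per stage. All groups stand at 21.6% to 24.1% at breaker (F-Dev6). Their parting at 5 days (F-Dev8), at 6.93%, 30.8% and 63.3%, is set by the cut-offs that define the groups.

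Lasting members include the most abundant of the 150. Capana02g002261 went from 1053 RPKM at mature green to 5657 RPKM at breaker and 36108 RPKM at 3 days after it, and was still at 19047 RPKM at 5 and 23345 RPKM at 7 days. Its highest earlier value was 1618 RPKM in fruit of 3 to 4 cm, so it was present throughout growth. Capana11g000141 was at 80.4, 571, 3331, 2453 and 3225 RPKM at mature green, breaker, 3, 5 and 7 days, all but flat after the peak. It was also present outside fruit, at 375 RPKM in buds and 451 RPKM in flowers of Zunla 1. The member ranked first, Capana05g001702, was the clearest switch. It was listed at 0 in root, leaf, bud, flower and the 2 smallest fruit stages, did not exceed 2.25 RPKM up to mature green, and stood at 22.1, 140, 77.5 and 98.3 RPKM from breaker to 7 days.

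At the peak transient members had the highest median level, 271 RPKM against 146 RPKM for the lasting and 176 RPKM for the intermediate members. Capana08g001524, the most abundant of them, stood at 618 RPKM at mature green, 3374 RPKM at breaker and 10784 RPKM 3 days later. By 5 and 7 days it was at 589 and 796 RPKM, about its mature green level. Capana07g001245 ended lower than it began, at 61.0 and 27.5 RPKM after a peak of 9453 RPKM, against 797 RPKM at mature green. Capana04g000412, ranked second, was at 16.1, 159, 823, 64.0 and 201 RPKM over the same 5 libraries. It was one of the transient members whose level at 7 days lay above that at 5 days, of which there were 38 among the 55. The limit given above for all members applies to this count too.

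Intermediate members came down part of the way. The most abundant were Capana01g003910, at 417, 636, 3169, 825 and 1315 RPKM from mature green to 7 days, and Capana07g000216, at 376, 630, 3076, 1709 and 1138 RPKM. Both were already present in growing fruit, at 377 to 856 RPKM and 613 to 814 RPKM in the 4 stages up to 5 cm.

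Across all 33 libraries the median member was highest 3 days after breaker in Zunla 1, at 187 RPKM, which the rule fixed. The next highest medians were not in riper fruit. They were in mature green fruit of HYL, at 104 RPKM, and of ZJ49, at 103 RPKM, while fruit 5 days after breaker stood at 38.9 RPKM in Zunla 1, 44.2 RPKM in ZJ49, 63.0 RPKM in ZJ7 and 47.1 RPKM in HYL. The other 7 C. annuum lines had mature green medians of 15.2 to 37.8 RPKM. Over the 33 libraries, 63 members were highest 3 days after breaker in Zunla 1, which the rule favours. Of the 19222 genes that reached 10 RPKM anywhere, 2.1% were highest there. Chiltepin leaf was highest for 30 members (5.44% of those genes) and HYL fruit 5 days after breaker for 18 (3.7%). Mature green fruit was highest for 16 in HYL (2.97%) and for 10 in ZJ49 (1.87%).

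**Figure D2:**
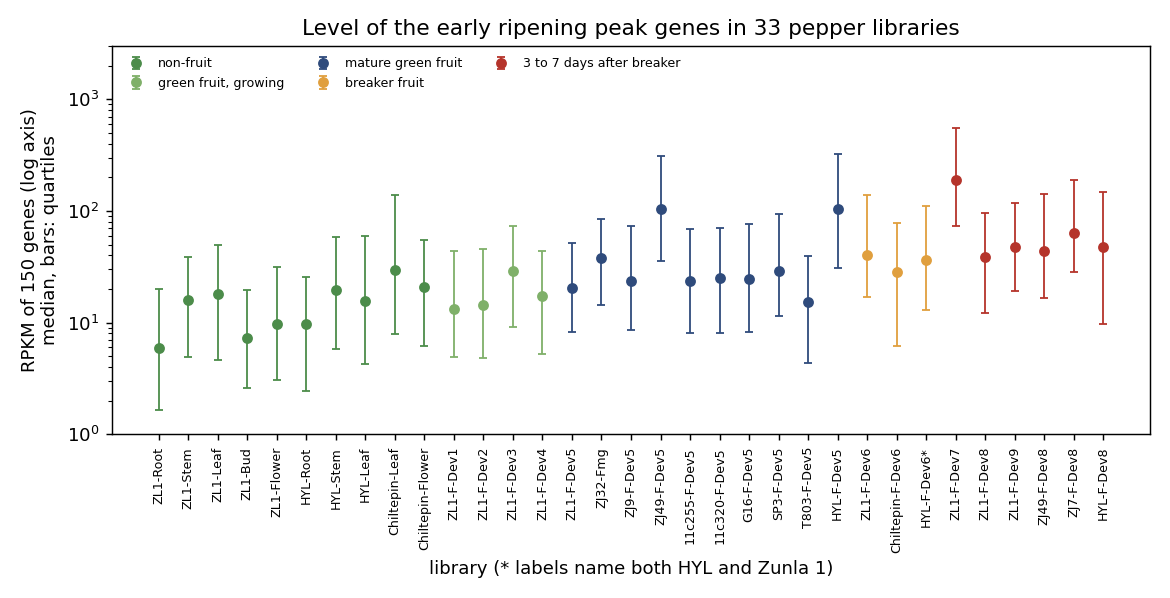
RPKM of the 150 genes in each of the 33 libraries on a log axis, with points for the median and bars for the quartiles over genes, coloured by organ and stage. Mature green ZJ49 and HYL, at 103 and 104 RPKM, lie above the other mature green libraries, which span 15.2 to 37.8 RPKM, and above all fruit 5 days after breaker.

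Mature green fruit of ZJ49 stood apart from the same stage of the other lines. Set against the median of the other 7 C. annuum lines, 97 of 148 members were at least 2-fold higher in ZJ49, where 11.8% of all 20862 genes were, and 0 were 2-fold lower. The same count was 32 for ZJ32 (14.6% of all genes), 28 for SP3 (6.66%), 21 for ZJ9 (9.52%), 10 for G16 (9.73%), 7 for 11c255 (6.39%), 6 for 11c320 (6.6%) and 2 for T803 (6.59%). Lasting, transient and intermediate members were all raised in ZJ49, at medians of 50.6%, 53.3% and 53.0% of the Zunla 1 peak. In the same library Capana06g000615, the ID that the rule left out, was at 1300 RPKM, against 0.214 to 4.45 RPKM in the other 7 lines, 2.37 RPKM in mature green and 1583 RPKM in breaker fruit of Zunla 1. HYL mature green fruit had it at 48.8 RPKM. The labelled stages were kept, so in ZJ49 and HYL each change from mature green is measured from a library in which the members and this ID were already higher than in the other lines. The comparison of lines is given below with and without mature green ZJ49.

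Ripening in lines that took no part in choosing the members was tested in fruit 5 days after breaker of ZJ49 and ZJ7 against mature green fruit of 8 C. annuum lines. Of the 150 members, 21 were higher and 4 were lower 5 days after breaker (limma on log2(RPKM + 1), Benjamini-Hochberg adjusted p under 0.05 over 21243 genes). Among all genes tested 4.25% were called higher and 6.9% lower. The median log2 difference was 0.93 over the members and -0.23 over all genes, and 114 of 150 members were positive. All 150 members passed the filter of 1 RPKM in at least 2 of the 10 libraries.

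By Zunla 1 time course, all 21 rises lay in the lasting and intermediate members. Lasting members rose in 10 of 27 cases and 26 of 27 were positive, with a median log2 difference of 1.82. Intermediate members rose in 11 of 68, with a median of 1.22. Of the 55 transient members 0 rose and 4 fell with limma, and their median was -0.21, beside -0.23 for all genes. At an unadjusted limma p under 0.05, 5 were higher and 9 lower, where 6297 of all 21243 genes passed in either direction. The split used Zunla 1 only, and these libraries hold none of it.

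**Figure D3:**
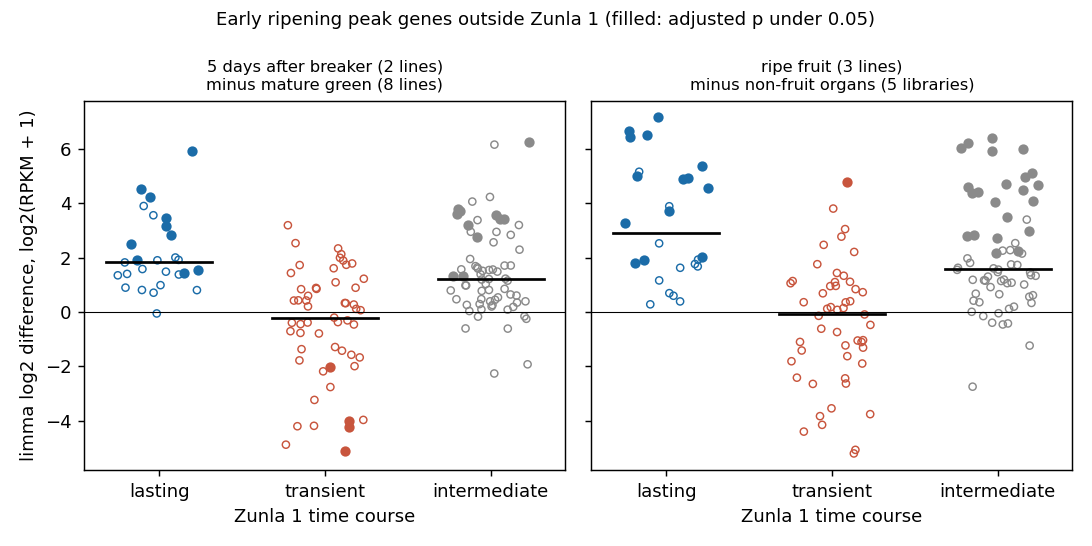
Log2 differences from limma for each gene, on the log2(RPKM + 1) scale, by Zunla 1 time course group, for fruit 5 days after breaker against mature green fruit (left) and for ripe fruit against non-fruit organs (right), both without Zunla 1. Filled points passed an adjusted p under 0.05 and black lines are medians. On the left the medians are 1.82, -0.21 and 1.22, and on the right 2.89, -0.09 and 1.58.

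The largest rise was that of Capana00g000714, an intermediate member. It was at 124 RPKM in ZJ49 and 206 RPKM in ZJ7 at 5 days, and in mature green fruit at 0 RPKM in the lowest line, a median of 0.0458 RPKM and 83.5 RPKM in the highest, ZJ49. The other 7 lines did not exceed 1.75 RPKM. Its log2 difference was 6.25 (SE 1.43, limma adjusted p = 0.0220). Capana11g000141, the lasting member described above, was at 3392 and 1813 RPKM in ripe ZJ49 and ZJ7, against a lowest value of 3.85, a median of 27.2 and a highest of 678 RPKM in mature green fruit. Here the log2 difference was 5.91 (SE 1.33, limma adjusted p = 0.0209). For both members the ripe lines lay above all 8 mature green lines, with ZJ49 the nearest. Both calls were lost without ripe ZJ49, without ripe ZJ7, in the shallower libraries, with the depth set in the fit and with the line as a block, at limma adjusted p up to 0.455 and 0.251 over the 20 alternatives. Within ZJ49 and within HYL the log2 difference of Capana00g000714 was 0.56, and 0.56 in the block, against 6.25 in the comparison between lines. Mature green fruit of ZJ49 and HYL already held it at 83.5 and 16.9 RPKM. In Zunla 1 it went from 6.01 RPKM at mature green to 63.9 RPKM 5 days after breaker. For Capana11g000141 the log2 difference was 2.32 in ZJ49, 1.06 in HYL and 1.69 in the block.

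All 4 members that fell were transient, which is 7.27% of the transient members beside 6.9% of all genes called lower. Capana08g002008, at 437 RPKM at the Zunla 1 peak and 0.682 and 0 RPKM after it, was at 1.75 RPKM in ripe ZJ49 and 37.4 RPKM in ripe ZJ7. In mature green fruit it was at 39.3 RPKM in the lowest line, a median of 295 RPKM and 472 RPKM in the highest, a log2 difference of -4.24 (SE 1.09, limma adjusted p = 0.0334). The arms were separated by little, since ZJ7 lay just under the lowest green line. Capana08g001895 went from 3215 RPKM at the Zunla 1 peak to 11.0 RPKM 5 days after breaker. It was at 17.9 and 177 RPKM in ripe ZJ49 and ZJ7 against 435 to 2263 RPKM in mature green fruit, a log2 difference of -4.00 (SE 0.78, limma adjusted p = 0.0122). Without ripe ZJ49 neither fall passed, and that of Capana08g002008 also failed without 11c255, 11c320 or SP3, with limma adjusted p up to 0.441 and 0.240 over the alternatives.

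The abundant Capana02g002261 also rose, from 388 to 10723 RPKM with a median of 1003 RPKM in mature green fruit to 33898 RPKM in ZJ49 and 14114 RPKM in ZJ7, at a log2 difference of 4.23 (SE 1.07, limma adjusted p = 0.0315). Capana05g001702, the member ranked first, stood at 58.3 and 60.6 RPKM in the ripe lines against 0 to 24.0 RPKM in green fruit, where only ZJ49 and SP3, at 10.7 RPKM, exceeded 1.95 RPKM. Its log2 difference was 4.53 (SE 1.15, limma adjusted p = 0.0321). Both calls failed without ripe ZJ49, ripe ZJ7, 11c255, 11c320, G16 or T803, in the shallower libraries, with the depth set in the fit and with the line as a block, where the log2 differences were 1.63 and 0.75.

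The 2 ripe lines did not carry the members alike. Transient members stood at a median of 6.84% of the Zunla 1 peak in ripe ZJ49 and at 22.4% in ripe ZJ7, and Capana08g001524 was at 738 RPKM in the first and at 8088 RPKM in the second. Without mature green ZJ49 there were 60 rises and 4 falls, where 7.56% of all genes were called higher and 13.3% lower, and the members' median was 1.17. Without ripe ZJ49 there was 1 rise and 0 falls, where 0.19% of all genes were higher and 0.0759% lower, and without ripe ZJ7 1 rise and 4 falls, where 1.57% were higher and 3.29% lower. The members' median stayed at 1.13 and 0.86 in those fits, in which the ripe arm is 1 library assumed to vary like the mature green lines. All ripe libraries are in the shallower set, and the count of calls differed between depth settings. Within that set, which leaves 3 mature green lines, 0 members and 0 of 19291 genes passed with limma, where 37 members and 3312 genes had an unadjusted p under 0.05. Within it and without mature green ZJ49, a setting chosen after seeing the data, 23 members rose and 0 fell. Among all genes 2.71% were called higher there and 4.35% lower. The members' median log2 difference in that setting was 0.95, with 107 of 147 positive. Adding the depth set to the fit left 4 members that rose and 1 that fell, where 2.08% of all genes were called higher and 4.13% lower. The members' median log2 difference was 0.44, with 96 positive members, both with the depth set in the fit and in the shallower libraries alone, against 0.93 and 114 in the comparison of all lines. How far depth takes part in these calls was not tested beyond those values.

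Scaling each library by its median ratio moved the median log2 difference of all genes from -0.23 to -0.07 and the calls over all genes from 902 higher and 1465 lower to 1291 higher and 1066 lower. The members then counted 28 rises and 3 falls, with a median of 1.12.

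ZJ49 and HYL each had both stages, so their members could be followed within a line, although each stage is 1 library and carries no test. Transient members were lower 5 days after breaker than at mature green in both lines in 53 of 55 cases. In 41 they were at least 2-fold lower in both, as were 5 of 68 intermediate and 0 of 27 lasting members. The share of all genes lower in both lines was not counted. All genes had median log2 differences of -0.14 in ZJ49 and -0.79 in HYL. In ZJ49, 45 of 54 transient members above 1 RPKM at either stage were at least 2-fold lower and 0 were 2-fold higher, while 17.7% of all 18571 genes were 2-fold lower. In HYL, 48 of 52 were 2-fold lower, where 42.4% of all 18267 genes were. Median-ratio scaling of the libraries, chosen after seeing the data, brought that share in HYL to 24.1% of all genes and 38 of the 52 transient members. Scaled values for ZJ49 were 43 of 54 transient members and 14.5% of all genes.

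Lasting members did not share this drop. In ZJ49 7 of 27 were at least 2-fold higher 5 days after breaker and 0 were lower, against 10.4% of all genes higher. In HYL 6 of 26 were 2-fold higher and 2 lower, against 6.96% of all genes higher, and after scaling 14 were higher and 0 lower, against 19.1% of all genes higher. Their levels in HYL 5 days after breaker reached a median of 80.1% of the Zunla 1 peak, and in ZJ49 68.9%. Over all members, 12 of 149 were 2-fold higher and 55 lower in ZJ49, where 10.4% of all genes were higher and 17.7% lower. In HYL 18 of 143 were higher and 70 lower, where 6.96% of all genes were higher and 42.4% lower. The members' median log2 differences were -0.62 and -0.92. After scaling the counts were 17 higher and 51 lower in ZJ49, against 12.1% and 14.5% of all genes. In HYL they were 42 higher and 51 lower, against 19.1% and 24.1% of all genes. A comparison list of 150 genes highest at 5 or 7 days after breaker in Zunla 1, chosen by the same score from 2055 candidates, had 139 of 149 genes 2-fold higher in ZJ49 and 98 of 133 in HYL. In the limma comparison of lines 110 of the 140 genes of that list which were tested rose and 0 fell.

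**Figure D4:**
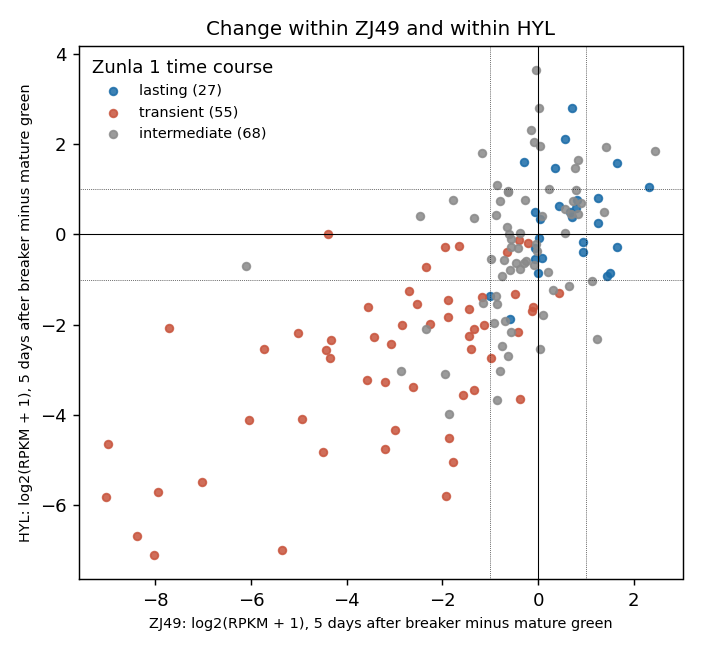
Log2 difference of RPKM + 1 between fruit 5 days after breaker and mature green fruit for each of the 150 genes, in ZJ49 (horizontal) and in HYL (vertical), 1 library per stage and line, coloured by Zunla 1 time course. Dotted lines mark 2-fold. Transient members fill the lower left, where 41 of 55 are at least 2-fold lower in both lines, against 5 of 68 intermediate and 0 of 27 lasting members. The share of all genes lower in both was not counted.

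With the line as a block, ZJ49 and HYL together gave 5 members that rose and 54 that fell with limma, against 21 and 4 in the comparison of lines without a block. Among all 17997 genes of the blocked fit 3.56% were called higher and 12.7% lower. The median log2 difference of the members turned from 0.93 to -0.56 under the block, with 45 of 146 positive in place of 114 of 150. That fit has 2 pairs and 1 residual degree of freedom, and both of its green libraries are those in which the members were already high.

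The steepest drops within HYL were those of Capana00g002793, from 802 to 4.82 RPKM, and Capana08g001895, from 1053 to 7.34 RPKM. In ZJ49 the same IDs went from 1166 to 3.47 RPKM and from 766 to 17.9 RPKM. The largest increases in HYL were in Capana08g002064, an intermediate member, from 955 to 11933 RPKM, and Capana11g000179, a lasting member, from 347 to 2443 RPKM. Neither had moved as far in ZJ49, where they went from 756 to 729 RPKM and from 476 to 776 RPKM. At the Zunla 1 peak these were at 1407 and 1093 RPKM.

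Whether ripening moved a member differently in HYL than in the C. annuum lines was tested as an interaction, with each HYL library assumed to vary like the other lines. None of the 150 members passed (limma, 0 called, lowest adjusted p = 0.0774, 28 members at an unadjusted p under 0.05), where 0.139% of all 21560 genes did, 0.0417% higher and 0.0974% lower in HYL. The median interaction was -1.83 for the members and -0.48 for all genes, and -1.12 and 0.11 after scaling. Without mature green ZJ49 the count was 9, all lower in HYL, where 0.093% of all genes were higher and 0.944% lower. A difference that fails here is not shown to be absent, since HYL has 1 library per stage.

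Some members were hardly found in HYL, which is C. chinense, or in the wild Chiltepin. Under 1 RPKM in all 5 HYL libraries were 5 members, or 3.33%, against 0.77% of the 1299 candidates. In all 3 Chiltepin libraries 8 were so, or 5.33% against 1.31%. The candidates include the members, and the ranking favours genes with low levels in Zunla 1 organs and earlier fruit. These shares are therefore description only, and the share of all genes was not counted. The member ranked first is one of both sets, at 0 to 0.611 RPKM in HYL and listed at 0 in Chiltepin. Whether reads of HYL and Chiltepin match the gene models as well as those of Zunla 1 was not tested.

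Outside fruit the members were compared between ripe fruit of ZJ49, ZJ7 and HYL and 5 non-fruit libraries, namely root, stem and leaf of HYL and leaf and flower of Chiltepin. Of the 143 members tested, 37 were higher in ripe fruit and 0 lower (limma, adjusted p under 0.05 over 19988 genes), where 7.99% of all genes were called, 2.77% higher and 5.22% lower. At an unadjusted limma p under 0.05 there were 72 members, 8 of them lower and all 8 transient. Of all 19988 genes, 4897 passed that cutoff in either direction. The other 7 members did not reach 1 RPKM in 3 of these 8 libraries. Lasting members were called in 14 of 26 cases, intermediate ones in 22 of 66 and transient ones in 1 of 51, with medians of 2.89, 1.58 and -0.09. Line and organ are partly the same split here, as no C. annuum line of the ripe arm has a non-fruit library in this comparison. Scaling gave 43 members higher, with 727 higher and 895 lower among all genes in place of 553 and 1044. Leaving out ripe ZJ49 gave 22.

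Capana10g000063 led these differences. It was at 568, 449 and 378 RPKM in ripe ZJ49, ZJ7 and HYL, and at 0.289 RPKM in root, 3.29 RPKM in stem and 0.983 RPKM in leaf of HYL, and 0.145 RPKM in leaf and 27.1 RPKM in flower of Chiltepin. The ripe libraries lay above all others, with a log2 difference of 7.15 (SE 0.94, limma adjusted p = 0.00162). Capana02g002261 was at 33898, 14114 and 35693 RPKM against 69.9, 133, 353, 332 and 1029 RPKM in the same order of organs, a log2 difference of 6.64 (SE 0.97, limma adjusted p = 0.00300).

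**Figure D5:**
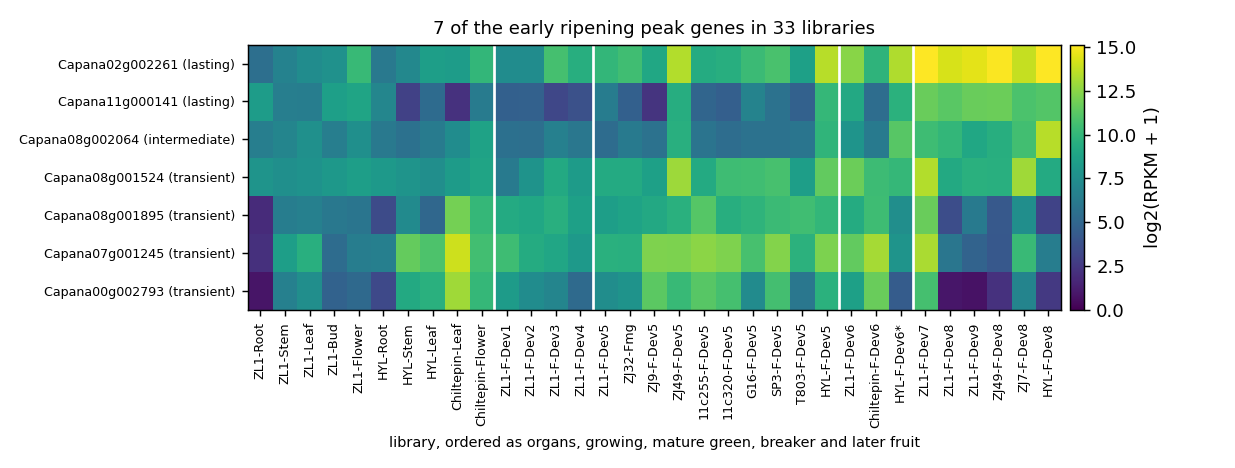
Log2(RPKM + 1) of 7 of the genes in all 33 libraries, with white lines between organs, growing, mature green, breaker and later fruit. The upper 3 are high in fruit after breaker, and of the lower 4, all transient, the last 3 are higher in Chiltepin leaf than 3 days after breaker in Zunla 1.

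Within HYL, 32 of 50 transient members were at least 2-fold higher in leaf than in root and 10 were lower. Of all genes 19.4% were higher and 25.4% lower. Leaf of Chiltepin stood out among non-fruit libraries by its level. There the members held 7.22% of the summed RPKM, against 0.425% to 1.38% in the other 4 non-fruit libraries outside Zunla 1 and 0.874% in leaf of Zunla 1. Most of this was in transient members, which held 6.19% and stood at a median of 47.7% of the Zunla 1 peak, against 8.19% for lasting and 14.7% for intermediate members. Chiltepin leaf was the highest of all 33 libraries for 20 of the 55 transient members, 10 of the 68 intermediate and 0 of the 27 lasting ones, and for 5.44% of the 19222 genes that reached 10 RPKM anywhere.

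Against leaf of HYL, 35 of 52 transient members were at least 2-fold higher in Chiltepin leaf and 6 lower, where 19.3% of all genes were higher and 37% lower. After scaling 41 were higher, against 30.4% of all genes. Against Chiltepin flower, from the same species and depth set, 36 of 50 were higher and 2 lower, where 14.5% of all genes were higher. In the comparison list of later genes, 17 of 86 and 6 of 85 were higher. The leaf library is a mix of 4 ages, and seedling leaf is the HYL counterpart, so age and species cannot be told apart in the first of these.

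Capana07g001245 was at 15971 RPKM in Chiltepin leaf, above its 9453 RPKM at the Zunla 1 peak, and at 1955 RPKM in leaf and 3038 RPKM in stem of HYL. Capana00g002793 was at 8134 RPKM there, against 1658 RPKM at the peak and 779 RPKM in leaf of HYL. Both were low in root, at 91.8 and 9.30 RPKM in HYL and 3.35 and 0.793 RPKM in Zunla 1. These were also the members with the highest level in Chiltepin breaker fruit, at 8711 and 3215 RPKM. Mature green fruit held them as well, at 761 to 5713 RPKM and 61.9 to 2607 RPKM over the 8 lines.

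Breaker fruit of Chiltepin held many members at lower levels than that of Zunla 1. The rule chose members by a rise in Zunla 1, and its breaker library was among the columns used. Lower levels in Chiltepin than in that library are therefore favoured by the choice, and these counts are description only. Lasting members were at least 2-fold lower in Chiltepin in 15 of 27 cases and higher in 1, where 11.7% of all genes were lower and 32.7% higher. Intermediate members were lower in 31 of 68 and higher in 5, and transient members lower in 17 of 54 and higher in 19. Set against Chiltepin flower instead, 30 of 51 transient members were higher in Chiltepin breaker fruit and 0 lower, against 19.6% of all genes higher. Capana02g002261 stood at 921 RPKM in breaker fruit of Chiltepin and 5657 RPKM in that of Zunla 1, and Capana06g000615 at 1.91 RPKM and 1583 RPKM, so the 2 breaker libraries are not at the same level of this ID. The lines also differ in depth set.

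Members were spread over all 13 number prefixes that the IDs carry. Of them, 10 lay in 5 pairs with consecutive numbers, 4 of which were of the same time course group. The share of all genes in such pairs is not given here. Members with close but not consecutive numbers were not counted, such as Capana00g002794 and Capana00g002796, or Capana10g000063 and Capana10g000065. Capana00g002793 and Capana00g002794, both transient, were at 1658 and 68.4 RPKM at the Zunla 1 peak and at 8134 and 1362 RPKM in Chiltepin leaf. Capana00g001029 and Capana00g001030, both lasting, were at 69.7 and 422 RPKM at the peak. In ripe fruit against non-fruit organs both were higher, at limma adjusted p = 0.00150 and 0.00245. Where such neighbours are near copies, reads may be shared between them.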

How the data were processed

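Poly(A) RNA of 33 pepper libraries was sequenced on an Illumina HiSeq instrument, per the labels' protocols. RPKM values in the deposited table were made by the authors, and the aligner, counter, genome build and gene models behind them are not stated in the labels used here. Each column is 1 library.

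The members and lists were chosen with earlier results of these data known. Whole reads were recovered for 25546 of 25556 genes above 0 in at least 10 libraries, as the fewest reads that make all values whole within 0.01. The method gave the true reads for 100% of recovered genes in simulated data. No library was a duplicate (closest pair, chi-square 55.1 per gene). Counting intervals are not given, as PCR copies cannot be told from separate molecules in these reads.

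Values were transformed to log2(RPKM + 1), which understates changes of low genes. Two-sided fits with limma 3.58.1 in R 4.3.3 (lmFit, eBayes, trend) kept genes that reached 1 RPKM in a number of libraries equal to the smaller arm (2 for the interaction), with Benjamini-Hochberg adjustment, and were tested on simulated data. Single libraries were compared by a 2-fold difference on this scale. Alternatives changed the pseudocount (0.1), dropped the filter, scaled by median ratios, left out single libraries, split by depth, or blocked by line. ZJ49 and HYL pair the stages by line name, with deviations from the stage means correlated at r = 0.615 over 17997 genes. Named genes are the first and second by rank, level, time course group or comparison, and the genes beside the threshold, where tested members needed arms that did not overlap and a mean of 10 RPKM in the higher one. Lists by product name are void, because the IDs are unnamed.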

Additional observations from a re-analysis of the deposited data

Results flagged for a closer look

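Among the 8 C. annuum lines other than Zunla 1 at the mature green stage, 14 of 24 sets of values examined had ZJ49 far from the other lines by Dixon's ratio of gap to range, with a critical value of 0.526 for 8 samples. Chance flags about 1 in 20 such sets, and the sets share their libraries. The median of the members was 103 RPKM in ZJ49, and by time course group it was 81.3 RPKM for lasting, 163 RPKM for transient and 101 RPKM for intermediate members.

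Among single members, ZJ49 stood apart for Capana02g002261 at 10723 RPKM, where the next line had 1787 RPKM, and for Capana08g001524 at 7896 RPKM, where the next had 1710 RPKM. The same held for Capana07g000216 at 2593 RPKM, Capana08g002064 at 756 RPKM, Capana11g000141 at 678 RPKM and Capana11g000179 at 476 RPKM. It also held for Capana04g000412 at 456 RPKM, Capana10g000063 at 417 RPKM, Capana00g000714 at 83.5 RPKM and Capana05g001702 at 24.0 RPKM.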

How the results depend on the processing

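The comparison of ripening across lines depended most on which libraries entered it. From 21 rises and 4 falls among the members and 2367 calls over all genes, leaving ZJ49 out of both arms gave 25, 0 and 781, the shallower libraries alone gave 0, 0 and 0, and the depth set as a term gave 4, 1 and 1320. Adding HYL to both arms gave 21, 11 and 4203. The replicate block by line, a pairing of ZJ49 and HYL, gave 5, 54 and 2934. Settings chosen after seeing the data were the shallower libraries without mature green ZJ49, with 23, 0 and 1341, and scaling without mature green ZJ49, with 68, 3 and 4690. Leaving out 1 library gave 1 to 60 rises, 0 to 6 falls and 56 to 4413 calls, with 1503 calls without 11c255, 1518 without 11c320, 56 without ripe ZJ49 and 1024 without ripe ZJ7, and with 1 fall without 11c255, 11c320 or SP3. For ripe fruit against other organs, all genes called went from 1597 to 861 with no filter and 2788 without Chiltepin, and leaving out 1 library gave 22 to 38 members higher, 0 to 7 lower (7 without HYL root) and 290 to 1743 genes. For the interaction with HYL, a pseudocount of 0.1 called 2 members and 131 genes, no filter 3 and 685, the shallower libraries 0 genes, and leaving out 1 library 0 to 9 members and 1 to 223 genes, against 0 and 30. Of the named members, Capana02g002261 lost its call across lines in 11 and Capana05g001702 in 12 of 20 alternatives, with limma adjusted p up to 0.788 and 0.591, and no named call changed sign. Scaling the Zunla 1 libraries before the rule kept 134 of the 150 members, and a pseudocount of 0.1 kept 146. With scaling 89 in place of 60 members had reached 25% at breaker, and the groups held 32 lasting, 53 transient and 65 intermediate members.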

Other observations

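The breaker library titled HYL but described as Zunla 1 entered no comparison. The members' median was 36.7 RPKM there. Taken gene by gene as a percentage of the level 3 days after breaker in Zunla 1, the median was 20.6%, and by time course group it was 29.5% for lasting, 6.95% for transient and 24.7% for intermediate members. The members held 3.19% of its summed RPKM. Its highest members were Capana02g002261 at 10550 RPKM and Capana08g002064 at 2366 RPKM, which in Zunla 1 breaker fruit stood at 5657 and 231 RPKM. Capana05g001702 stood between the HYL libraries, at most 0.611 RPKM, and Zunla 1 breaker fruit, at 22.1 RPKM.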
